A study of Mus musculus with 6 samples.

Results

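Costimulatory and checkpoint receptors on T cells, and the ligands that antigen-presenting cells show to them, were followed in the lacrimal gland, the main tear-producing gland, of NOD/Ltj and ICR mice. The set was given by name and holds 10 genes: the receptors Cd28, Icos, Ctla4, Pdcd1, Lag3 and Tigit and the ligands Cd80, Cd86, Icosl and Cd274. All 10 were found by symbol, each on 1 row, among 55401 gene identifiers. Polyadenylated RNA was sequenced from 3 NOD/Ltj and 3 ICR lacrimal gland samples, with 1 library per sample. NOD/Ltj mice, an inbred strain that develops autoimmune disease of several organs, served as the model of primary Sjögren's syndrome, an autoimmune disease of tear and salivary glands. ICR is an outbred stock used as the control, so the strains differ in genetic background as well as in disease. The labels name no transgene, deletion or treatment for either group. Age, sex and the number of glands or animals behind a sample are not given in the labels, and p-values therefore measure the spread between these samples, which may be technical.

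A T cell needs a signal through its antigen receptor and a further one from costimulation. CD28 gives it when it binds CD80 or CD86 on an antigen-presenting cell, and CTLA-4, made after activation and constantly by regulatory T cells, competes for the same ligands and restrains the response. ICOS, bound by ICOS ligand, sustains follicular helper T cells, which help B cells in germinal centres. PD-1, bound by PD-L1 (the product of Cd274), LAG-3, which binds MHC class II, and TIGIT, which binds PVR and nectin-2, are inhibitory receptors of activated T cells. In NOD mice these pathways have been studied mainly in diabetes, where loss of PD-1 signals speeds disease.

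The libraries held 62318534 to 64000969 estimated counts in NOD/Ltj and 58426580 to 76554340 in ICR. About 4 counts stood for 1 sequenced fragment. A count of 0 therefore allows up to 12 counts per library. CPM are counts scaled to the library total times its TMM factor, which ran from 0.809 (ICR 2) to 1.255 (NOD 2). In CPM the limit was 0.150 to 0.222 in NOD/Ltj and 0.173 to 0.210 in ICR. Without molecular identifiers, this limit and the intervals given for ratios of fragments cover only the counting error. Krt8 and Krt18, keratins of glandular epithelium, averaged 133 and 155 CPM in NOD/Ltj and 174 and 220 CPM in ICR, without a call for either. ICR 1 stood apart from ICR 2 and ICR 3: its summed macrophage marker level was 184 CPM, against 57.9 and 63.1 CPM, and its summed epithelial and endothelial level was 806 CPM, against 436 and 381 CPM.

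All 10 genes were more abundant in every NOD/Ltj library than in any ICR library, and 7 of them rose past the test. These were Cd28, Icos, Ctla4, Pdcd1, Cd86, Icosl and Cd274. Lag3, Tigit and Cd80 did not pass when adjusted over all genes. In bulk tissue, a different number of cells of a type and a different amount of RNA per cell cannot be told apart. By edgeR, 1.88% of the 18537 genes tested were called higher in NOD/Ltj and 0.361% lower, at an adjusted p under 0.05. None of the 10 was called lower, by edgeR, DESeq2 or limma-voom, or at an unadjusted p under 0.05. A separation of all libraries in the same direction held for 11.2% of genes tested. The median log2 fold change (NOD/Ltj over ICR) of the 10 genes was 3.03, and that of all genes tested was -0.03. DESeq2 called 9 of the 10 and limma-voom 2, namely Cd28 and Cd274.

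The number called depended on single libraries. It was 6 without NOD 1 or without ICR 1, 1 without ICR 3, and 0 without NOD 2, NOD 3 or ICR 2. Without ICR 3 the gene still called was Icos. The same reductions left 442, 524, 149, 73, 13 and 142 genes called in the whole table, where 416 were called with all libraries. Fold changes of the 10 genes were positive in each reduced fit. The libraries of NOD/Ltj were unequal throughout: NOD 1 was the lowest of the 3 for all 10 genes, and NOD 2 was the highest of all 6 libraries for 9 of them, the exception being Icos.

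**Figure D1:**
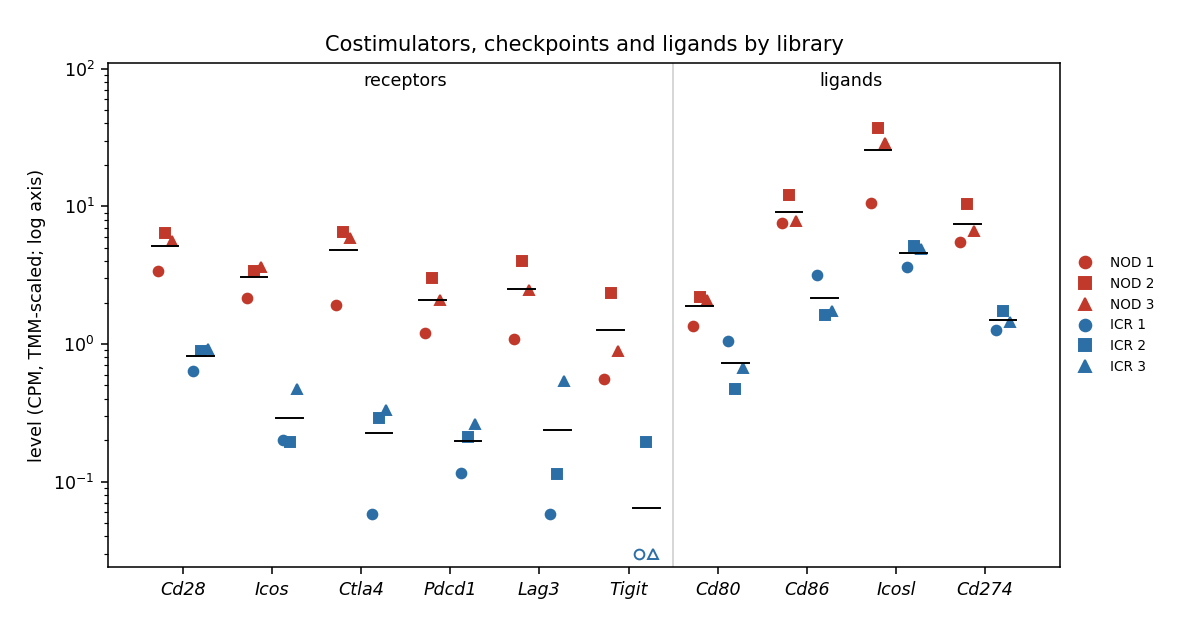
Level of each gene in each library, in CPM on a log axis, with NOD/Ltj left (red) and ICR right (blue); horizontal lines are means over 3 libraries, and open symbols at the lower edge are libraries with 0 counts. All NOD/Ltj points lie above all ICR points for each gene, with the narrowest gap for Cd80 (1.35 CPM in NOD 1, 1.05 CPM in ICR 1).

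RefSeq's promoter table (GRCm38.p6) held an entry for 6 of the 10 genes: Ctla4, Pdcd1, Tigit, Icosl, Cd80 and Cd274. The 250 bases before the annotated start are shown for Ctla4, the gene with the largest fold change, for Icosl, the most abundant ligand, and for Cd274, a ligand known to be induced by interferon-γ. Capitals mark matches to the motifs searched, on either strand. The windows are chr1:60908775-60909024 (plus strand), chr10:78069118-78069367 (plus strand) and chr19:29367188-29367437 (plus strand).
Ctla4: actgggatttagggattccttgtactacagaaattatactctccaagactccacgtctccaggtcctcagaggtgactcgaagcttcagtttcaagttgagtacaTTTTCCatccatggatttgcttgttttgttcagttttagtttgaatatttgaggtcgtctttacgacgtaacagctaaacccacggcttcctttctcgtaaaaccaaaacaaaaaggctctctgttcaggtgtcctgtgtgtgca
Icosl: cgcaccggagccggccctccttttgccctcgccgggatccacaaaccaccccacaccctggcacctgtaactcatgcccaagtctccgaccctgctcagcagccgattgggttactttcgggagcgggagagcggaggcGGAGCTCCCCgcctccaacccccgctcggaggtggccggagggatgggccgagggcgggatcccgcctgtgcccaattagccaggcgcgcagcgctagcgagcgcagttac
Cd274: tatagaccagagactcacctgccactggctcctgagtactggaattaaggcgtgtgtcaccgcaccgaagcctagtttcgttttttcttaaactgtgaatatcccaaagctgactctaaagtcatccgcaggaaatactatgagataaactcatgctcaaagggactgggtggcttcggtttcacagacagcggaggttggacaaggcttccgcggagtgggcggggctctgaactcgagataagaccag
The capitals in Ctla4 are, on the opposite strand, a match to the core bound by NFAT (GGAAAA), a factor activated by the T cell receptor, and lie 145 to 140 bases before the start. Those in Icosl are, also on the opposite strand, a match to the NF-κB consensus, 111 to 102 bases before the start. This consensus is GGGRNNYYCC, where R is A or G, Y is C or T and N is any base. The Cd274 window held no match to any motif searched.

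The other motifs searched were the interferon-stimulated response element (GAAANNGAAA), the gamma-activated site (TTCNNNGAA) and the AP-1 site (TGANTCA). Of the 32851 promoters in the table, 20.4% held the NFAT core, 7.25% the NF-κB consensus, 6.75% the AP-1 site, 7.02% the gamma-activated site and 2.98% the interferon-stimulated element. Among the 6 windows, Tigit also held the NFAT core and Cd80 the AP-1 site, and Pdcd1 held none. No window held more than 1 match, so none overlapped another. A match describes letters only, and binding was not measured.

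Cd28, Ctla4 and Icos lie in this order on chromosome 1, with 114 kb between the annotated genes Cd28 and Ctla4 and 62.1 kb between Ctla4 and Icos. Cd28, the constitutive costimulatory receptor, stood at 3.39, 6.38 and 5.60 CPM in NOD 1, 2 and 3, against 0.636, 0.889 and 0.926 CPM in ICR 1, 2 and 3. The groups were well apart, and the lowest NOD/Ltj library exceeded the highest ICR library by more than the range within ICR. Its log2 fold change was 2.65 ± 0.36 (SE, edgeR adjusted p = 0.0159), or 6.27-fold. Ctla4, the competing inhibitor, stood at 1.93, 6.56 and 5.86 CPM in NOD/Ltj, against 0.0578, 0.291 and 0.332 CPM in ICR. NOD 1 was far below the other NOD/Ltj libraries, and ICR 1, with 4 counts, far below the other ICR libraries. Ctla4 rose by 4.40 ± 0.74 on the log2 scale (SE, edgeR adjusted p = 0.0301), or 21.2-fold, and rested on 41 counts in ICR, about 10 fragments. The ratio of summed fragments had a 95% counting interval from 12.8 to 50.4. Icos, the inducible costimulator, stood at 2.17, 3.39 and 3.64 CPM in NOD/Ltj, against 0.202, 0.194 and 0.472 CPM in ICR. It had the smallest spread in NOD/Ltj of the 6 receptors relative to its mean (3.06 ± 0.79 CPM, SD, n = 3), where ICR averaged 0.289 ± 0.158 CPM (SD, n = 3). Icos rose by 3.40 ± 0.49 (log2, SE, edgeR adjusted p = 0.0173).

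The inhibitory receptors Pdcd1, Lag3 and Tigit held few counts in ICR. Pdcd1 stood at 1.20, 3.00 and 2.08 CPM in NOD/Ltj, against 0.116, 0.210 and 0.262 CPM in ICR. It rose by 3.41 ± 0.54 (log2, SE, edgeR adjusted p = 0.0233), on 36 counts in the ICR libraries together. Lag3 stood at 1.09, 3.99 and 2.45 CPM in NOD/Ltj, against 0.0578, 0.113 and 0.542 CPM in ICR. ICR 3 was several times above the other ICR libraries. The log2 fold change of Lag3 was 3.41 ± 0.88 (SE), about that of Pdcd1, but with the larger error it did not pass (edgeR adjusted p = 0.124, unadjusted 0.00542). Tigit stood at 0.556, 2.34 and 0.894 CPM in NOD/Ltj, against 0, 0.194 and 0 CPM in ICR. The 12 counts of ICR 2, about 3 fragments, were all that ICR held, and NOD 2 was more than the other NOD/Ltj libraries together. The ratio of summed fragments was 21.6 with a 95% counting interval from 7.10 to 107, and the test across samples did not pass (edgeR adjusted p = 0.224).

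The calls of all 4 receptors ended in some reduced fits. Cd28, Ctla4 and Pdcd1 were not called without NOD 2, NOD 3, ICR 2 or ICR 3. Adjusted p then ran from 0.0562 to 0.0963 for Cd28, from 0.0930 to 0.139 for Ctla4 and from 0.0745 to 0.120 for Pdcd1. Icos lost its call without NOD 2, NOD 3 or ICR 2 (0.0770 to 0.108). Lag3 and Tigit were not called in any reduced fit, with lowest values of 0.0642 (without ICR 3) and 0.0860 (without ICR 2).

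**Figure D2:**
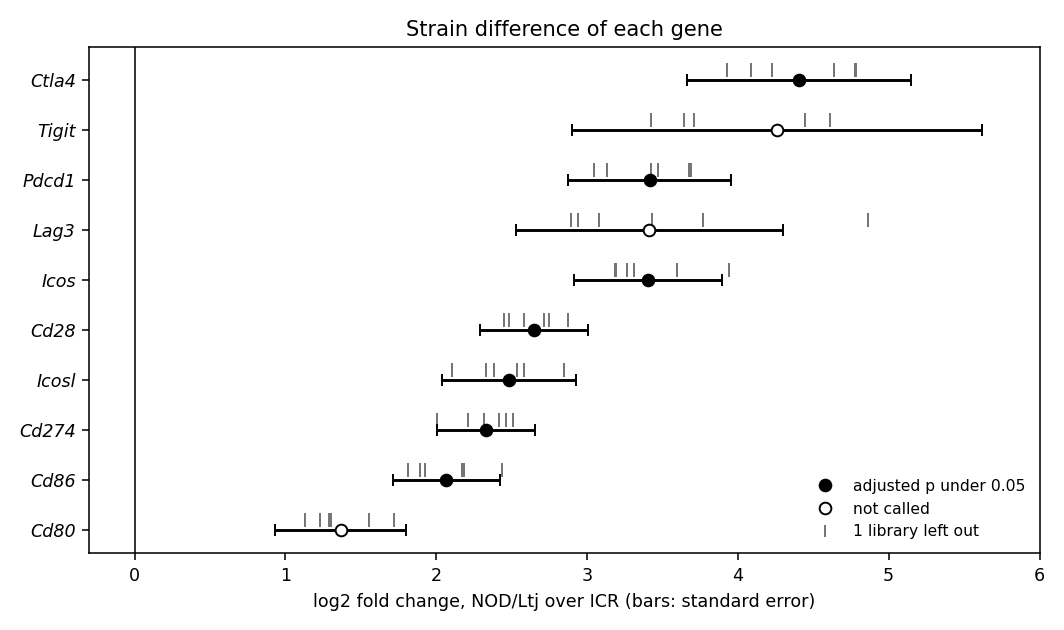
Log2 fold change, NOD/Ltj over ICR, of each gene with its standard error (bars); filled circles passed an adjusted p under 0.05, and grey ticks are fits with 1 library left out. Values run from 1.37 for Cd80 to 4.40 for Ctla4; the tick of Tigit without ICR 2, where all ICR libraries left had 0 counts, is not drawn.

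The ligands had smaller fold changes than the inhibitory receptors, a difference that was not tested. Icosl stood at 10.6, 37.0 and 29.0 CPM in NOD/Ltj, against 3.63, 5.19 and 4.91 CPM in ICR. NOD 1 lay closer to the ICR libraries than to the other NOD/Ltj libraries, without overlap. Icosl rose by 2.48 ± 0.44 (log2, SE, edgeR adjusted p = 0.0358), or 5.58-fold. Cd86, the ligand of CD28 and CTLA-4 that most antigen-presenting cells carry at rest, stood at 7.54, 12.0 and 7.85 CPM in NOD/Ltj, against 3.18, 1.62 and 1.73 CPM in ICR. ICR 1, the library with the highest summed macrophage marker level, also had the highest Cd86 level in ICR, and the part of the macrophage transcripts in the result was not tested. Cd86 rose by 2.07 ± 0.35 (log2, SE, edgeR adjusted p = 0.0315), or 4.19-fold. Without ICR 1 its log2 fold change was 2.43.

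Cd80, the other ligand of CD28 and CTLA-4, stood at 1.35, 2.20 and 2.09 CPM in NOD/Ltj, against 1.05, 0.468 and 0.664 CPM in ICR. The groups nearly touched, at NOD 1 and ICR 1. The log2 fold change of 1.37 ± 0.43 (SE) did not pass (edgeR adjusted p = 0.220, unadjusted 0.0148), also not without ICR 1, where it was 1.72 (0.0896). Cd274, which encodes PD-L1, stood at 5.48, 10.3 and 6.59 CPM in NOD/Ltj, against 1.26, 1.74 and 1.45 CPM in ICR. It was even within ICR (1.48 ± 0.25 CPM, SD, n = 3), where NOD/Ltj averaged 7.47 ± 2.55 CPM (SD, n = 3). Cd274 rose by 2.33 ± 0.33 (log2, SE, edgeR adjusted p = 0.0160), or 5.03-fold. An annotated antisense gene, AC119228.1, shares 14.1% of the exon bases of Cd274. Its own counts were 19, 69 and 9 in NOD/Ltj and 13, 0 and 17 in ICR, and the strand setting of the counting is not given in the sources used here.

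Among the ligands, Cd274 was called without NOD 1 or ICR 1 and not in the other reduced fits (adjusted p from 0.0566 without ICR 2 to 0.0890 without NOD 3). Icosl was called only without NOD 1 (0.00616), with values from 0.0707 (without ICR 1) to 0.170 (without NOD 3) in the others. Cd86 was called only without ICR 1 (0.0187), with values from 0.0533 (without NOD 1) to 0.133 (without NOD 2) in the others.

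Levels of different genes can be set side by side only per length, here as CPM per kb of annotated exon. On this scale Icosl had the highest mean in both strains, with 5.53 ± 2.93 in NOD/Ltj and 0.990 ± 0.180 in ICR (SD, n = 3 each). Cd86 (2.49 ± 0.68 in NOD/Ltj, 0.594 ± 0.238 in ICR) and Cd274 (2.06 ± 0.70 in NOD/Ltj, 0.410 ± 0.068 in ICR, SD, n = 3 each) followed in both. Ctla4 had rank 4 in NOD/Ltj at 2.05 ± 1.07 CPM per kb and rank 8 in ICR at 0.0974 ± 0.0635 (SD, n = 3 each). Below it in NOD/Ltj came Tigit, Lag3, Pdcd1, Icos and Cd28, between 1.38 and 0.837, with Cd80 last at 0.508 ± 0.125 (SD, n = 3). In ICR, Cd80 had rank 4 (0.197), and the 6 receptors lay between 0.133 (Cd28) and 0.0703 (Tigit).

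Most neighbours in these orders were within their spread. In NOD/Ltj no neighbouring pair was separated by more than the SDs, though Icosl exceeded Cd86, Cd86 exceeded Cd274, Ctla4 exceeded Tigit, and Cd28 exceeded Cd80 in all 3 libraries. In ICR only the step from Cd274 to Cd80 was larger than the SDs. There Icosl exceeded Cd86, and Cd86 exceeded Cd274, in only 2 of 3 libraries each. The order of the 6 receptors in ICR rests on few fragments and is not distinguishable at this depth.

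Ctla4 was also set against Cd28, which binds the same ligands, a ratio chosen after the values were seen. Ctla4 had 0.568, 1.03 and 1.05 counts per Cd28 count in NOD 1, 2 and 3, against 0.0909, 0.327 and 0.358 in ICR 1, 2 and 3. The strains did not overlap, and the summed counts gave 0.956 in NOD/Ltj and 0.270 in ICR. Per kb of exon, the summed ratio was 2.51 in NOD/Ltj and 0.709 in ICR. The count ratios in this paragraph are not corrected for exon length and serve only to compare the strains. On the log2 scale with 0.1 CPM added, the mean difference was 1.38 (exact permutation test, two-sided p = 0.10, the smallest that 3 against 3 samples can give). It was 0.68 with 0.5 CPM added. The ratio of Cd86 to Cd80 was likewise chosen after the values were seen. Cd86 had 5.58, 5.44 and 3.75 counts per Cd80 count in NOD/Ltj, against 3.01, 3.45 and 2.61 in ICR, again without overlap (log2 difference 0.76, exact permutation test, two-sided p = 0.10). The ratio of ligand to receptor was given without a test for ICOS: Icosl had 4.89, 10.9 and 7.97 counts per Icos count in NOD/Ltj, against 17.9, 26.8 and 10.4 in ICR. Here NOD 2 exceeded ICR 3, so the strains overlapped.

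Transcripts of T cells were higher in NOD/Ltj, and each receptor was therefore divided by Cd3e, which encodes CD3 epsilon of T cells, within each library. The 14 T cell markers summed to 45.6, 136 and 102 CPM in NOD 1, 2 and 3, against 4.85, 4.46 and 6.26 CPM in ICR 1, 2 and 3. Relative to Cd3e, no receptor was higher in NOD/Ltj than in all ICR libraries. Cd28 was lower in NOD/Ltj, with log2 ratios of -0.28, -0.59 and -0.55, against 0.35, 1.60 and 1.31 in ICR. Pdcd1 was lower as well, with -1.70, -1.65 and -1.94 in NOD/Ltj, against -1.42, -0.07 and -0.20 in ICR. Both differences, -1.56 for Cd28 and -1.20 for Pdcd1, came without overlap of the strains (exact permutation test, two-sided p = 0.10 each, the smallest possible). Their direction follows from the fold changes, as Cd3e rose by 4.42 (log2), above both. With 0.5 CPM added, the differences were -1.10 for Cd28 and -1.32 for Pdcd1. Pdcd1 had only 8, 13 and 15 counts in ICR, so the added CPM weighs on its ratios.

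Ctla4 overlapped between the strains relative to T cell transcripts, with log2 ratios to Cd3e of -1.06, -0.55 and -0.49 in NOD/Ltj, against -1.87, 0.26 and 0.06 in ICR. The difference of -0.18 was smaller than the spread within ICR (exact permutation test, two-sided p = 0.90) and was -0.86 without ICR 1, 0.21 without ICR 2 and 0.11 without ICR 3. Icos and Lag3 differed by -0.98 each, with overlap of the strains (exact permutation test, two-sided p = 0.20 and 0.40). For Icos the difference was -0.64 without ICR 3. For Lag3 it was -0.36 without ICR 3 and -1.61 without ICR 1. The overlap depended on the added CPM. With 0.5 CPM added, Icos and Lag3 differed by -0.99 and -1.20 (exact permutation test, two-sided p = 0.10 each, the smallest possible). Ctla4 then differed by -0.42 (exact permutation test, two-sided p = 0.30). No test is given for Tigit, because its ratios in ICR 1 and ICR 3, with 0 counts, were set by the added 0.1 CPM. Its difference was -1.01, against -1.63 with 0.5 CPM added and -0.30 without ICR 2. Against the mean of all 14 T cell markers, Icos and Lag3 were lower in NOD/Ltj without overlap, with differences of -0.79 and -0.80 (exact permutation test, two-sided p = 0.10 each). Over all 38 ratios compared in this way, the smallest Benjamini-Hochberg adjusted p was 0.224. Cd3e had only 33, 14 and 18 counts in ICR, and Lag3 had 4, 7 and 31. In the list of 14, Cd5 had 0, 0 and 4 counts in ICR and Cd6 had 0, 0 and 11. The ratios to Cd3e and to the list are therefore uncertain on the ICR side. With so few counts, the added 0.1 CPM also weighs on the ratios to the list.

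**Figure D3:**
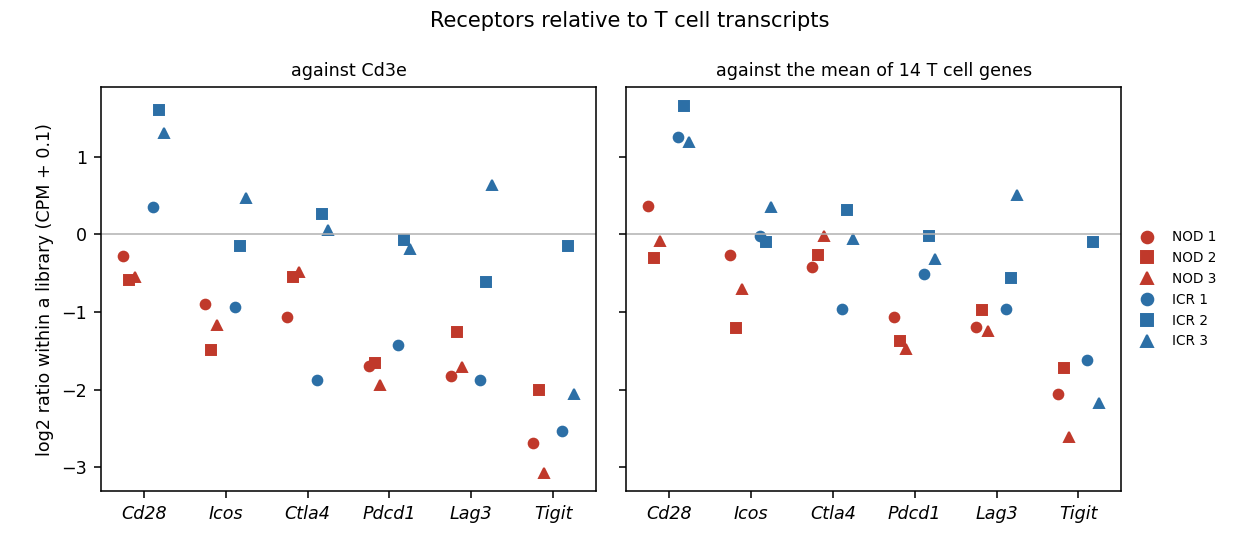
Log2 ratio of each receptor to Cd3e (left) and to the mean log2 level of 14 T cell genes (right) within each library, from CPM with 0.1 added, NOD/Ltj in red left of ICR in blue. Cd28 and Pdcd1 lie lower in NOD/Ltj in both panels, and Ctla4 overlaps between the strains in both.

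The ligands were compared in the same way with markers of the cells that can carry them. Summed B cell markers stood at 122, 513 and 347 CPM in NOD 1, 2 and 3, against 3.65, 6.25 and 6.64 CPM in ICR 1, 2 and 3. Macrophage markers summed to 126, 152 and 118 CPM in NOD/Ltj, against 184, 57.9 and 63.1 CPM in ICR. Dendritic cell markers summed to 26.2, 50.9 and 43.1 CPM in NOD/Ltj, against 25.6, 13.8 and 21.2 CPM in ICR. Relative to the mean log2 level of the 30 genes in these lists, Cd80 was lower in NOD/Ltj, with a log2 difference of -1.07 and no overlap (exact permutation test, two-sided p = 0.10). Cd86 (-0.31), Cd274 (-0.15) and Icosl (-0.07) differed by less than the spread within ICR (exact permutation test, two-sided p = 0.40, 0.90 and 0.90).

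The outcome depended on the list, a split chosen after the values were seen. Against B cell markers alone, the 4 ligands were lower in NOD/Ltj without overlap, with log2 differences from -3.32 (Icosl) to -4.32 (Cd80) (exact permutation test, two-sided p = 0.10 each). This direction follows from the fold changes, as the B cell list had a median of 6.12 (log2), above every ligand. Some B cell markers had few counts in ICR: Fcer2a had 3, 5 and 11, and Cd79b had 0 in ICR 1. The added 0.1 CPM therefore weighs on these ratios, and 0.5 CPM was not tried for them. Against macrophage markers alone, Cd86 and Cd274 were higher in NOD/Ltj by 1.45 and 1.61 without overlap (exact permutation test, two-sided p = 0.10 each). Cd80 (0.69) and Icosl (1.69) overlapped between the strains there (exact permutation test, two-sided p = 0.20 each). Against dendritic cell markers alone, all 4 ligands overlapped, with differences of -0.09 for Cd80, 0.68 for Cd86, 0.84 for Cd274 and 0.91 for Icosl (exact permutation test, two-sided p = 0.80 for Cd80 and 0.20 for the others). The ratios of Icosl were looked at by library after the values were seen. To B cell markers they were -0.09, -0.39 and -0.17 in NOD/Ltj and 3.28, 3.10 and 2.93 in ICR. They varied little within a strain but differed widely between strains. Its ratios to macrophage markers ranged more widely, 0.18, 1.87 and 1.84 in NOD/Ltj and -1.58, 0.37 and 0.03 in ICR. To dendritic cell markers they were 2.64, 3.34 and 3.40 in NOD/Ltj and 1.78, 3.03 and 1.83 in ICR. Which cells carried each ligand was not measured in these libraries.

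**Figure D4:**
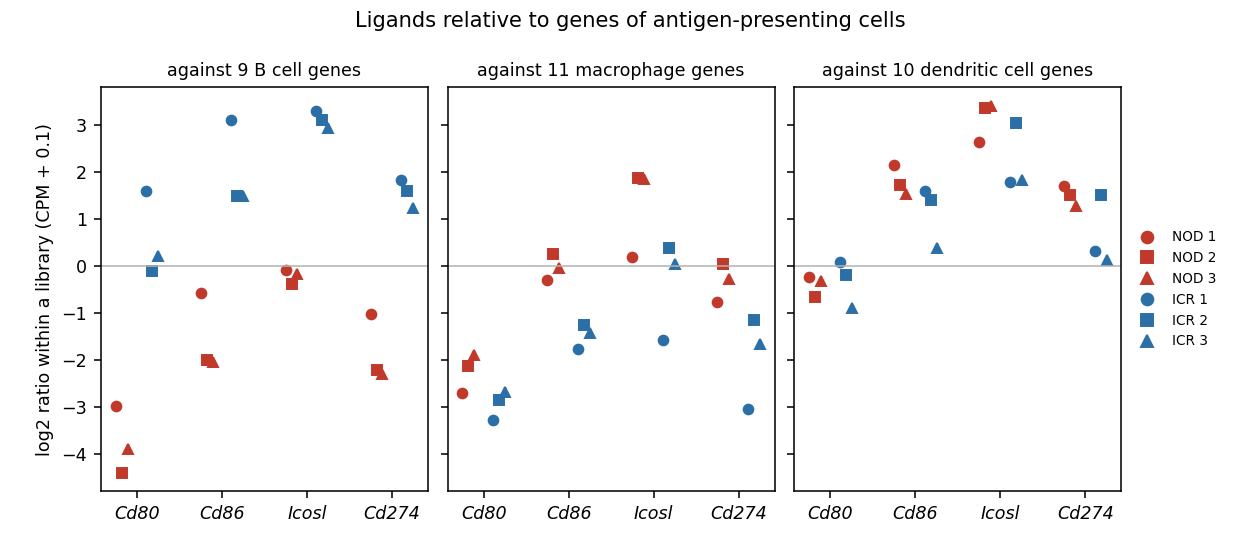
Log2 ratio of each ligand to the mean log2 level of B cell, macrophage and dendritic cell genes within each library, from CPM with 0.1 added, NOD/Ltj in red left of ICR in blue. NOD/Ltj points lie lower against B cell genes for every ligand, and higher against macrophage genes for Cd86 and Cd274.

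Other receptors and ligands of the same kind were taken from lists drawn up for this comparison. Of 10 other checkpoint and costimulatory receptors, 9 could be tested, 2 rose and 7 were not called, with a median log2 fold change of 1.20. Btla, an inhibitory receptor of B and T cells, rose by 6.17 ± 0.72, and Lair1, a collagen receptor of leukocytes, by 2.23 ± 0.32 (log2, SE, edgeR adjusted p = 0.0108 and 0.0169). Havcr2, which encodes the checkpoint receptor TIM-3, had 2.10 ± 0.41 (adjusted p = 0.0512), and Vsir, which encodes VISTA, 0.57 ± 0.36 (log2, SE, adjusted p = 0.582). DESeq2 called 4 of the 9 genes and limma-voom 1. By edgeR, 0 were called without NOD 3 and 1 without NOD 2, ICR 2 or ICR 3.

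Of 10 other ligands, 9 could be tested and none was called by edgeR, DESeq2 or limma-voom (1 at an unadjusted p under 0.05, higher), with a median log2 fold change of -0.04. Ceacam1, a ligand of TIM-3, stood at 62.8 ± 23.9 CPM in NOD/Ltj and 66.8 ± 17.5 CPM in ICR (SD, n = 3 each). Nectin2, a ligand of TIGIT, stood at 23.2 ± 1.92 CPM in NOD/Ltj and 26.4 ± 4.61 CPM in ICR. Pvr, the other ligand of TIGIT, and Pdcd1lg2, which encodes the second PD-1 ligand PD-L2, were named after their values were seen. Pvr had a log2 fold change of 0.16 ± 0.33 (SE, edgeR adjusted p = 0.911). Pdcd1lg2 had 64 counts in NOD/Ltj and 20 in ICR, all 20 in ICR 2, and did not pass (1.48 ± 1.53, log2, SE, edgeR adjusted p = 0.779).

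MHC class II is the ligand of LAG-3. Of 9 genes of class II chains, loading and control, 6 rose and 3 were not called, with a median log2 fold change of 2.86. H2-DMb2, a loading chaperone, rose by 3.71 ± 0.46, and the chains H2-Aa, H2-Ab1 and H2-Eb1 by 2.86 ± 0.44, 2.48 ± 0.44 and 4.84 ± 0.89 (log2, SE, edgeR adjusted p = 0.0116, 0.0224, 0.0361 and 0.0407). H2-DMa (1.59) and the class II transactivator Ciita (3.47) were not called (edgeR adjusted p = 0.102 and 0.112). H2-Ea-ps had a log2 fold change of -2.27 and was not called. The H2 genes have close relatives and alleles that differ between strains, so their counts are uncertain. DESeq2 called 8 of the 9 genes and limma-voom 2. By edgeR, 0 were called without NOD 3 or ICR 3, 1 without NOD 2 or ICR 2, and 3 without ICR 1.

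Of 16 genes of proximal signalling from these receptors, 7 rose and 9 were not called, with a median log2 fold change of 1.93. The T cell kinase Lck rose by 4.28 ± 0.50 and the PI3-kinase subunit Pik3cd, through which CD28 and ICOS signal, by 2.31 ± 0.40 (log2, SE, edgeR adjusted p = 0.0108 and 0.0312). DESeq2 called 11 of the 16 and limma-voom 0. By edgeR, 0 were called without NOD 3 or ICR 3, and without NOD 2 or ICR 2, 1 was. The widely expressed regulatory subunit Pik3r1 (0.05) was not called. Of 12 genes that control turnover or mRNA decay of these proteins, none was called by edgeR, DESeq2 or limma-voom (1 at an unadjusted p under 0.05, higher). The most abundant of them, Stub1 and March8, had log2 fold changes of 0.04 and 0.02. Of 14 transcription factors of T cell states, Tcf7 (3.84 ± 0.52) and Foxp3 (4.12 ± 0.72, log2, SE, edgeR adjusted p = 0.0159 and 0.0339) rose and 12 were not called, with a median of 1.05. DESeq2 called 3 of the 14 and limma-voom 1. By edgeR, neither gene was called without NOD 2, NOD 3 or ICR 2, and 1 of the 14 without ICR 1 or ICR 3. Tcf7 marks naive, memory and stem-like T cells, and Foxp3 defines regulatory T cells, which carry CTLA-4. Bcl6, the factor of follicular helper T cells and germinal centre B cells, had a log2 fold change of -0.44 ± 0.47 and Maf of -0.55 ± 0.62 (SE, edgeR adjusted p = 0.782 and 0.798). In ICR, Bcl6 averaged 44.7 ± 25.3 CPM and Maf 23.0 ± 22.5 CPM (SD, n = 3 each). The T cell markers there summed to 4.46 to 6.26 CPM and the B cell markers to 3.65 to 6.64 CPM. Which cells carried Bcl6 and Maf was not measured, so these fold changes need not describe T or B cells.

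Interferon-γ induces PD-L1 in many cells. Of 11 genes of interferon-γ, its receptors, its signalling and its targets, 3 rose and 8 were not called, with a median log2 fold change of 1.42. Ifng itself was not called (2.71 ± 1.37, log2, SE, edgeR adjusted p = 0.479), with 16, 0 and 0 counts in ICR. The chemokines Cxcl9 and Cxcl10 rose by 5.23 ± 0.29 and 3.38 ± 0.32 (log2, SE, edgeR adjusted p = 0.00139 and 0.00663). DESeq2 called 4 of the 11 and limma-voom 3, and edgeR called 1 without NOD 3. Jak1 (0.54) and Irf1 (0.87) were not called.

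Among cell type lists, 7 of 14 T cell, 8 of 9 B cell, 1 of 10 dendritic cell, 0 of 11 macrophage and 0 of 8 epithelial and endothelial markers were called higher by edgeR, and none lower. DESeq2 called 13 T cell, 9 B cell and 4 dendritic genes higher, and limma-voom 0, 3 and 0. Cd3e, Cd2, Cd3g and Trbc1 of T cells rose by 3.85 to 4.78 on the log2 scale, and Trac (4.97) and Cd4 (4.79) were not called (edgeR adjusted p = 0.0589 and 0.0761). Pax5, Ms4a1 and Cd22 of B cells rose by 6.05 to 6.71, and Cd79b (5.62) was not called (edgeR adjusted p = 0.0525). The dendritic gene was Ccr7 (4.23 ± 0.71, log2, SE), which naive T cells also express, while Itgax (2.05) and Fscn1 (0.15) were not called. Ccr7 was called with all libraries and without NOD 1, and no dendritic gene was called in the other reduced fits. At an unadjusted p under 0.05, 5 dendritic genes were higher and 1 lower, Cd209a (-1.46), which was named after its value was seen. Of macrophage genes, Mrc1 (-1.78) and C1qb (1.14) were not called. The value of Mrc1 rested on ICR 1, at 58.2 CPM against 7.63 and 7.85 CPM in ICR 2 and ICR 3. In NOD/Ltj Mrc1 stood at 10.2, 6.43 and 4.88 CPM. At an unadjusted p under 0.05, 4 macrophage genes were higher, against 1 by DESeq2 and 0 by limma-voom, and edgeR called 4 without ICR 1. Of the epithelial and endothelial genes, 1 was higher and 1 lower both at an unadjusted p under 0.05 and by DESeq2, and 0 by limma-voom. Without NOD 3, 0 T cell and B cell genes were called. Without NOD 2, ICR 2 or ICR 3 these counts were 2, 3 and 4 for T cells and 6, 6 and 5 for B cells, in that order of libraries.

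**Figure D5:**
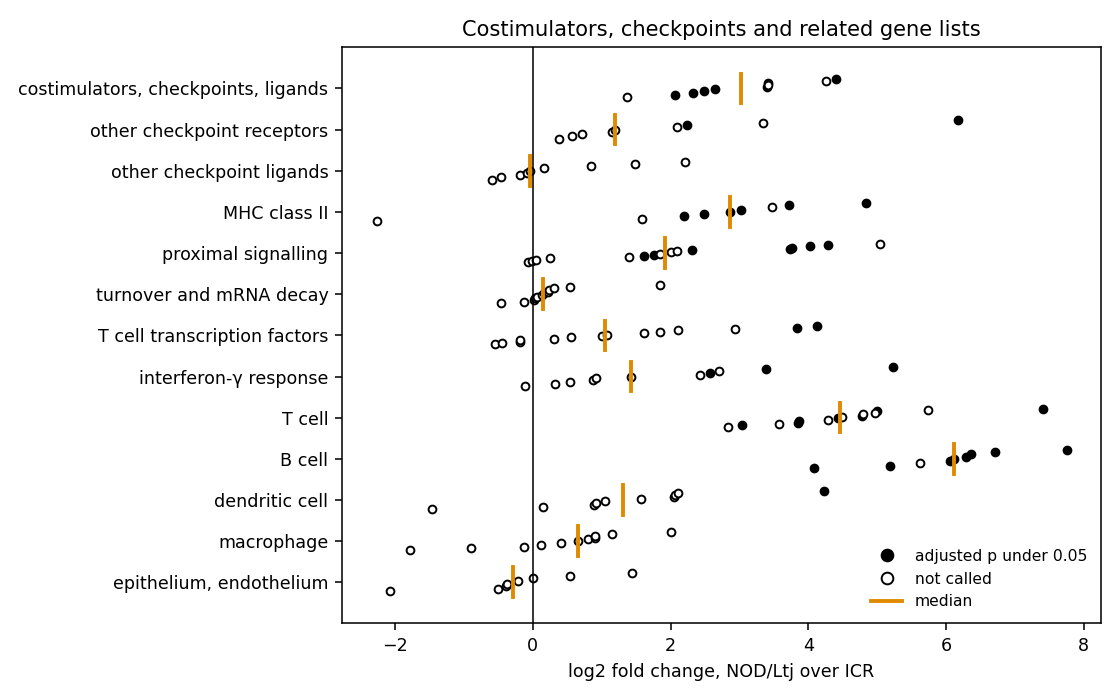
Log2 fold change, NOD/Ltj over ICR, of every tested gene of each list; filled circles passed an adjusted p under 0.05 and orange bars are medians. The 10 costimulators, checkpoints and ligands have a median of 3.03, between those of the T cell list (4.45) and of the other checkpoint receptors (1.20).

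The genes most like each of the 10 over the 6 libraries were sought among 12712 named genes with a mean of at least 1 CPM. With 3 libraries of each strain such correlations include the difference between strains and are descriptions. Cd28 was most like Cd22, Tbc1d10c and Btla (Pearson r of log2 CPM from 0.999 to 1.00). Ctla4 was most like Ffar1, Izumo1r (of the folate receptor family) and Plk3 (0.998 to 0.999), and Icos like H2-Q7, Cd5 and Ifi203 (0.996 to 0.998). Pdcd1 went with Chst3, Cd52 and Slamf6, Lag3 with Rfxank, Xkrx and Ripor2, and Tigit with Pou2af1, Lpin2 and Cbwd1. Of the ligands, Icosl was most like Sept1, Plxnc1 and Rasgrp3 (0.996 to 0.997), and Cd274 like Cd79a, Il2rg and B3gnt5 (0.994 to 0.995). Cd80 went with Psmb8, Syk and Tap2 and Cd86 with Psmb9, Srgn and Zbp1. Of these, Psmb8, Tap2 and Psmb9 serve the supply of peptides to MHC class I.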

How the data were processed

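Per the labels' protocols, polyadenylated RNA was made into strand-marked libraries and sequenced as 2 × 150 bp pairs. Fastp, StringTie and edgeR appear, per the submitters' processing notes, with no version or role. Aligner, genome build and strand setting were not given in the sources used here. The authors deposited estimated counts per gene, already whole numbers, so nothing was rounded and the count test planned for plain counts was kept. Symbols came from GENCODE mouse release 21 (55141 of 55401 identifiers), as did exon lengths. Between 30.4 and 31.7% of values from 1 to 40 were multiples of 4, where 25% would be without steps. Library pairs differed by chi-square values of 34.7 to 341 per degree of freedom, so none was counted as a repeat.

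Differences were tested with edgeR 4.0.16 (R 4.3.3): quasi-likelihood test, TMM scaling, filterByExpr, two-sided, Benjamini-Hochberg adjustment over all genes. All 10 genes passed the filter. The scripts were tested on simulated data. DESeq2 1.42.0, limma-voom (limma 3.58.1), other filters and scalings, a replicate block and leaving out each library were alternatives. Each SE was obtained from the log2 fold change and its F statistic. Ratios within a library used CPM plus 0.1 and exact permutation tests. From each list, called genes were named up to 4 by lowest adjusted p, with up to 2 not called of the highest level, and the 3 most similar genes for each of the 10. Pvr, Pdcd1lg2, H2-Ea-ps, Ifng and Cd209a were named outside this rule. Some genes that the rule names are not reported here. The genes and lists were chosen with earlier results of these data known.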

Additional observations from a re-analysis of the deposited data

How the results depend on the processing

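The direction of all 10 genes held in every fit that tested them, while calls did not. With 416 genes called in the whole table, DESeq2 called 1219, limma-voom 143 and the fit with a replicate block 154. Leaving out 1 library gave 13 to 524. Of the 10 genes, 7 were called, against 2 by limma-voom, 3 with the block and 0 to 6 with 1 library left out. None was called lower in any fit. Of the other checkpoint receptors and ligands 2 were called, against 4 by DESeq2, 1 by limma-voom, 1 with the block and 0 to 3 with 1 library left out. The replicate numbers did not pair the samples: deviations of same-numbered libraries correlated at -0.10, -0.13 and 0.05, and not every sample correlated best with its own number.

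Ratios to antigen-presenting cell lists (ligands) or to Cd3e (Ctla4) that lay near 0 changed sign. With 0.5 CPM added, the difference of Cd274 was 0.022 and of Icosl 0.25. With Cd74 as denominator it was 0.17 for Cd274, 0.0048 for Cd86 and 0.24 for Icosl. With 1 library left out it ran from -0.36 to 0.15 for Cd274, -0.34 to 0.20 for Icosl and -0.86 to 0.21 for Ctla4. The cause was not tested. The stricter filter, at least 1 CPM in at least 3 libraries, left out Lag3 and Tigit.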
